A study of Rattus norvegicus with 30 samples.

Results

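Collagen chain genes were followed in rat plantaris tendons after a full cut and suture repair. The genes were taken by name alone, as every gene in the count table whose symbol is Col, a number, the letter a and a number, which gave 34 of 13124 genes. The rule reads no expression value, although the set was proposed with earlier results of these data known. Of the 34 genes, 32 passed the filter on expression, an average of 3 CPM or more in some group (CPM are counts scaled to a common library size). Col6a4 and Col10a1 did not pass, and chains such as Col1a2 and Col6a3 were not analysed here.

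The tendons came from 3-month-old male Sprague Dawley rats, with 1 right plantaris tendon sequenced per rat. Control tendons (n = 3) came from rats with no surgery and no test compound. In the other rats both plantaris tendons were cut and repaired with a Bunnell suture, and GSK2894631A was given by oral gavage 2 times a day. GSK2894631A inhibits HPGDS, the hematopoietic enzyme that makes prostaglandin D. Tendons were collected at 7 days (7D) after repair with 0, 2 or 6 mg/kg (n = 5, 4 and 3) or at 21 days (21D) with the same doses (n = 5 each). The 0 mg/kg rats had the surgery and the gavage at a dose without the compound, while the controls are described only as having no surgery and no compound. Effects of the surgery and of the gavage in the 0 mg/kg rats cannot be told apart. The piece taken lay between the junction with the muscle and the heel bone. Total counts were 12405741 to 49909374 per tendon, so 3 counts stood for 0.0601 to 0.242 CPM, and such floors cover counting error only. All CPM values below are scaled by TMM, an edgeR method that corrects library sizes for differences in composition. Values for single tendons are listed from low to high within a group.

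A collagen molecule is a triple helix of 3 chains, and each chain is the product of its own gene. Fibrillar collagens form the load-bearing fibrils of tendon, where type I is the bulk and types III, V and XI regulate fibril diameter. FACIT collagens (fibril-associated, with interrupted helices) sit on the fibril surface, basement membrane collagens build sheets around vessels, nerves and muscle fibres, and type VI makes beaded filaments around cells. The 34 genes held 10 fibrillar, 5 FACIT, 8 basement membrane or basement membrane zone, 5 beaded filament, 3 short chain and 2 transmembrane chains, and Col28a1 apart from these classes.

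Together the collagen chain genes took up a larger part of the counts after repair. Their summed share of all counts was 0.807, 2.73 and 3.50% in the control tendons. At 7D it was 8.10 to 13.1% (0 mg/kg), 8.84 to 9.32% (2 mg/kg) and 10.3 to 11.2% (6 mg/kg), and at 21D it ran from 6.03% to 11.1% over the 3 doses. Every repaired tendon had a higher share than every control tendon. Col1a1 and Col3a1 made up 80.5 to 87.8% of these collagen counts in all 30 tendons, not corrected for transcript length. In whole tendon RNA, fewer cells of a type and less RNA per cell cannot be told apart. Counts of muscle genes also differed between the groups. Of 29 skeletal muscle genes listed as markers, 25 were in the table, with a share in control tendons of 18.9 to 26.6% of counts. The same genes held 0.171 to 1.26% at 7D with 0 mg/kg, at most 0.0113% with 2 and 6 mg/kg, and 0.0648 to 9.58% at 21D. With the counts of these 25 marker genes, and no others, left out of the totals, the collagen share was 1.10 to 4.33% in controls and at least 6.54% in every repaired tendon.

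**Figure D1:**
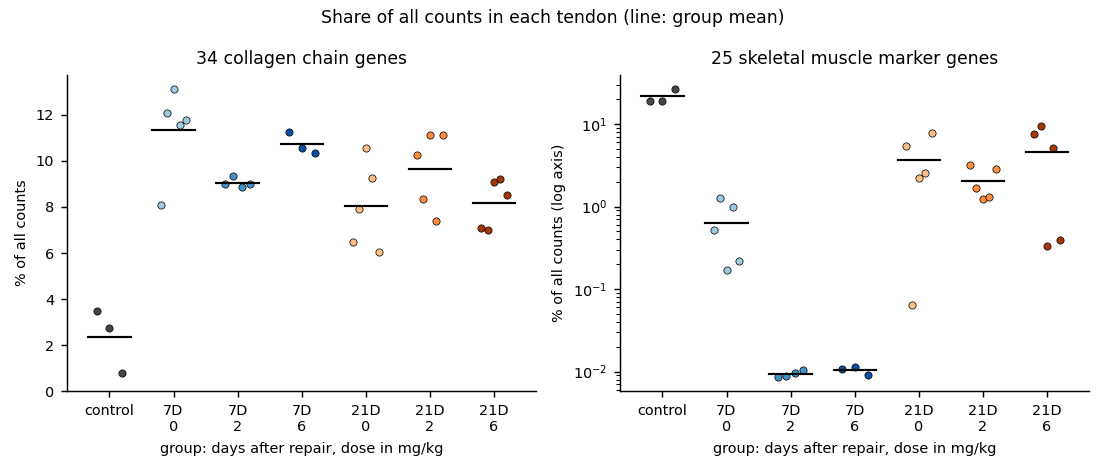
Percent of all counts in each tendon held by the 34 collagen chain genes (left) and by 25 skeletal muscle marker genes (right, log axis), by group; points are tendons and lines are group means. The collagen share is higher in every repaired tendon than in the controls, and the muscle share is lowest in the 7D tendons given 2 and 6 mg/kg.

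The first question was how each chain differed between repaired and uninjured tendon, tested with edgeR (quasi-likelihood) over 12558 genes, p-values adjusted by Benjamini-Hochberg. At 7D with 0 mg/kg, 21 of the 32 chains tested were higher and 7 lower than in controls, against 35.8% and 35.6% of all genes. At 21D with 0 mg/kg, 20 were higher and 7 lower, where 32.2% and 33.7% of all genes were called. The median log2 fold change of the chains was 1.52 at 7D and 1.03 at 21D, beside 0.05 and 0.03 over all genes. In the 7D 2 mg/kg tendons 18 chains were higher and 5 lower, with 35.8% and 34% of all genes. The 7D 6 mg/kg tendons had 19 higher and 7 lower, with 34.1% and 33.8%. At 21D, 2 mg/kg gave 19 and 8 (33.8% and 35.3%) and 6 mg/kg gave 17 and 8 (30.8% and 33.3%). All 6 comparisons use the same 3 control tendons, so they are not independent of each other. Nothing in the labels says which rats shared a cage, day or litter, so the p-values measure the spread between these tendons. Scaling by library size alone, in place of TMM, raised the median log2 fold change of all genes to 0.64 at 7D and 0.59 at 21D, and no chain called in either 0 mg/kg comparison changed direction under it. The share of all called genes that were higher was then 75.6% at 7D and 77.9% at 21D, in place of 50.1% and 48.9%. The chains called at 7D were the same under this scaling, and at 21D Col1a1 and Col8a2 were gained as higher and Col4a5 was lost.

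**Figure D2:**
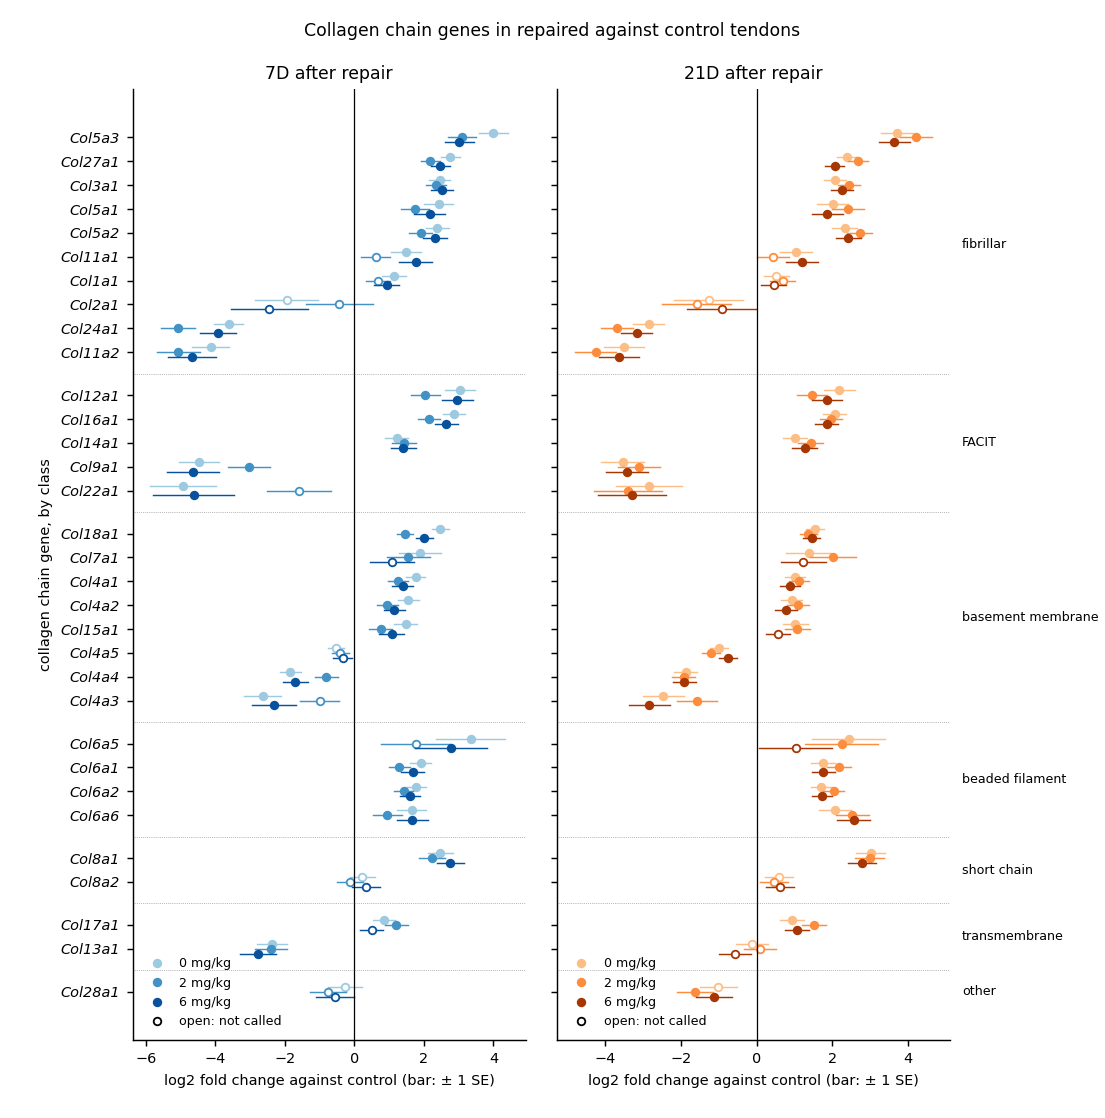
Log2 fold change against control, with bars of 1 standard error, for the 32 collagen chain genes tested, by class (rows), at 7D (left) and 21D (right); colours give the dose, and open points have an adjusted p of 0.05 or more. Col5a3 lies farthest to the right at both times, while Col22a1, Col9a1, Col11a2, Col24a1, Col4a3 and Col4a4 lie to the left in the 0 mg/kg tendons.

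Among the fibrillar chains, 7 of 10 were higher and 2 lower at 7D with 0 mg/kg, beside 35.8% and 35.6% of all genes. At 21D with 0 mg/kg, 6 were higher and 2 lower, beside 32.2% and 33.7% of all genes. Col3a1, Col5a1, Col5a2, Col5a3, Col11a1 and Col27a1 were higher at both times, Col1a1 at 7D, and Col24a1 and Col11a2 were lower at both. Col2a1, the chain of cartilage type II collagen, was not called. With 2 mg/kg, 5 of the 10 were higher and 2 lower at 7D (35.8% and 34% of all genes). The counts were the same at 21D (33.8% and 35.3%). With 6 mg/kg, 7 were higher and 2 lower at 7D (34.1% and 33.8%), and 6 and 2 at 21D (30.8% and 33.3%). Col1a1 encodes the main chain of type I collagen. Control tendons had 7359, 17827 and 30142 CPM. The 7D tendons had 22763, 41538, 41901, 44860 and 51616 (0 mg/kg), 26809, 27672, 30219 and 32898 (2 mg/kg), and 30969.5, 33689.8 and 40487 (6 mg/kg). The 21D tendons had 19925, 20389, 25435, 28796 and 37894 (0 mg/kg), 19906, 26708, 30556, 31781 and 40060.5 (2 mg/kg), and 20724, 22159.6, 23404, 28436 and 31206 (6 mg/kg). Control tendons spread widely for this gene, and only the 7D 6 mg/kg tendons lay wholly above them. The log2 fold change (± SE) of Col1a1 was 1.14 ± 0.33 (adjusted p = 0.00390) at 7D with 0 mg/kg and 0.52 ± 0.33 (adjusted p = 0.159) at 21D. The 7D call was lost in a fit of these groups alone (adjusted p = 0.107). The 21D value became a call under library size scaling (1.02, adjusted p = 0.0108) and without control replicate 2 (1.01, adjusted p = 0.0124).

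Col3a1 encodes type III collagen, the other abundant fibrillar chain of healing tissue. It was at 3490.1, 11412 and 12298 CPM in control tendons. After 7 days it was at 42438, 47551, 51761, 52727 and 53376 (0 mg/kg), 41960.5, 45842, 47897 and 48769 (2 mg/kg), and 49827, 50255 and 54674 (6 mg/kg). After 21 days it was at 30229, 30782, 36281, 46121 and 46765 (0 mg/kg), 38612, 41074, 54578, 55282 and 56734 (2 mg/kg), and 39721, 41406, 44335, 44472 and 48145 (6 mg/kg). The lowest repaired tendon was above the highest control tendon in all 6 groups. Col3a1 rose by a log2 fold change of 2.45 ± 0.30 (adjusted p = 8.99e-08) at 7D and 2.07 ± 0.29 (adjusted p = 1.42e-06) at 21D with 0 mg/kg.

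The largest rise of any chain at both times was in Col5a3, which encodes the α3 chain of type V collagen, a minor component that takes part in fibril assembly. Its level in control tendons was 54.2, 67.8 and 68.2 CPM. In 7D tendons it was 485, 818, 1167, 1178 and 1404 (0 mg/kg), 506, 519, 534 and 607 (2 mg/kg), and 443, 483 and 619 (6 mg/kg). In 21D tendons it was 422, 688, 948, 985 and 1118 (0 mg/kg), 684, 816, 1082, 1638 and 1697 (2 mg/kg), and 456, 589.6, 654, 935 and 1323 (6 mg/kg). No repaired tendon overlapped the controls, whose 3 values lay close together. The log2 fold change was 3.99 ± 0.42 (adjusted p = 1.14e-08) at 7D and 3.71 ± 0.41 (adjusted p = 6.55e-08) at 21D with 0 mg/kg.

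The other type V chains moved the same way. Col5a1 went from 399.5 ± 259 CPM (SD) in controls to 2138 ± 684 at 7D and 1612 ± 612 at 21D with 0 mg/kg, log2 fold changes of 2.42 ± 0.41 (adjusted p = 1.38e-05) and 2.01 ± 0.41 (adjusted p = 0.000135). Col5a2 went from 381 ± 179 to 1988 ± 456 and 1915 ± 622 CPM, log2 fold changes of 2.38 ± 0.33 (adjusted p = 5.58e-07) and 2.33 ± 0.32 (adjusted p = 1.28e-06). Neither gene overlapped the controls in any repaired group. Col27a1, a fibrillar chain of cartilage and developing connective tissue, rose by 2.75 ± 0.27 (adjusted p = 3.56e-09) and 2.40 ± 0.26 (adjusted p = 5.27e-08) on the log2 scale. Col11a1, a chain of type XI collagen, was higher by 1.48 ± 0.43 (adjusted p = 0.00364) and 1.04 ± 0.42 (adjusted p = 0.0329), with overlap between the tendons of both comparisons. Its 21D call was lost without control replicate 3 or 4 or 21D 0 mg/kg replicate 3 and in the fit of the compared groups alone. Its partner chain Col11a2 went the other way. Control tendons had 49.8, 101 and 281 CPM of Col11a2, and the 7D and 21D 0 mg/kg tendons had 4.61, 6.68, 8.96, 9.09 and 11.6 and 6.37, 6.58, 9.77, 10.2 and 30.6 CPM. All repaired tendons were under the lowest control tendon for Col11a2, with log2 fold changes of -4.14 ± 0.54 (adjusted p = 2.82e-07) and -3.50 ± 0.53 (adjusted p = 3.72e-06). Col24a1, a fibrillar chain known from bone and developing tissue, fell from 66.4 ± 27.9 CPM to 5.44 ± 2.75 at 7D and 9.21 ± 2.78 at 21D, log2 fold changes of -3.61 ± 0.42 (adjusted p = 4.45e-08) and -2.85 ± 0.41 (adjusted p = 1.82e-06). For Col2a1 the control mean was 7.30 ± 5.79 CPM, and the log2 differences of -1.95 ± 0.91 (adjusted p = 0.0575) and -1.27 ± 0.90 (adjusted p = 0.220) did not pass the test, although Col2a1 was called lower at 7D with DESeq2, in the fit of the compared groups alone, and without control replicate 3 or 7D 0 mg/kg replicate 3.

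The balance of chains within a tendon was compared as ratios of counts, which do not depend on how libraries are scaled. Such a ratio is not corrected for transcript length, so it is read between tendons only. The Col3a1 to Col1a1 count ratio was 0.379, 0.474 and 0.690 in control tendons. It was 1.003, 1.14, 1.18, 1.27 and 1.86 in the 7D 0 mg/kg tendons and 1.23, 1.43, 1.51, 1.52 and 1.60 in the 21D 0 mg/kg tendons. Every repaired tendon lay above every control tendon, with geometric mean ratios 2.53-fold higher at 7D and 2.91-fold higher at 21D. Both differences had an exact two-sided permutation p of 0.0179, the smallest that 5 against 3 tendons allow, and an adjusted p of 0.0268 over the 6 ratio comparisons. Between 21D and 7D the log2 ratio differed by 0.20 (exact permutation p = 0.246), which did not pass. The Col5a1 to Col1a1 ratio was 0.0146, 0.0199 and 0.0275 in controls. It was 0.0417, 0.0513, 0.0526, 0.0559 and 0.0572 at 7D and 0.0472, 0.0571, 0.0627, 0.0647 and 0.0660 at 21D with 0 mg/kg. Again no repaired tendon overlapped the controls, and the geometric means were 2.57-fold and 2.95-fold higher with the same exact permutation p of 0.0179. The difference between 21D and 7D in this ratio was 0.20 on the log2 scale (exact permutation p = 0.127). With medians in place of means the 4 differences from control had an adjusted exact permutation p of 0.0804, and without any 1 control tendon 0.0714, the smallest that design allows. Over the 4 dosed groups the Col3a1 to Col1a1 ratio ran from 1.24 to 1.998, above every control.

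**Figure D3:**
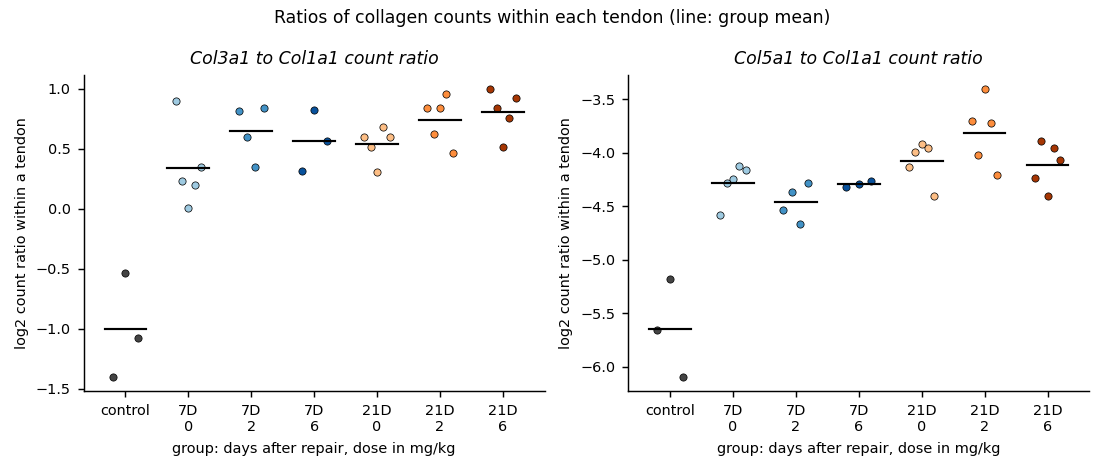
Log2 ratio of Col3a1 to Col1a1 counts (left) and of Col5a1 to Col1a1 counts (right) within each tendon, by group; points are tendons and lines are group means. In both panels the 3 control tendons lie under all repaired tendons.

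All 5 FACIT chains were called in both 0 mg/kg comparisons. Col12a1, Col14a1 and Col16a1 were higher, and Col22a1 and Col9a1 were lower. Of all genes, 35.8% were higher and 35.6% lower at 7D, and 32.2% were higher and 33.7% lower at 21D. Col12a1 encodes a FACIT on the surface of type I fibrils that is made in tendon and other dense connective tissue. Its levels were 105, 124 and 293 CPM in control tendons. At 7D they were 707, 982, 1621, 1861 and 2033 (0 mg/kg), 440.2, 731, 783 and 918 (2 mg/kg), and 1106, 1257 and 1709 (6 mg/kg). At 21D they were 509, 553, 579, 1066 and 1251 (0 mg/kg), 311, 352, 479, 511 and 748 (2 mg/kg), and 487, 562, 613, 621 and 886 (6 mg/kg). No repaired tendon reached down to the controls, although the gap to the 21D 2 mg/kg tendons was small. Col12a1 rose by 3.05 ± 0.44 (adjusted p = 1.10e-06) at 7D and 2.18 ± 0.41 (adjusted p = 6.84e-05) at 21D with 0 mg/kg on the log2 scale. Col16a1, a FACIT of many connective tissues, rose by 2.86 ± 0.32 (adjusted p = 2.47e-08) and 2.06 ± 0.30 (adjusted p = 2.73e-06), from 98.7 ± 50.6 CPM to 715 ± 225 and 412 ± 116.

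Col14a1 encodes a FACIT that takes part in fibril growth in developing tendon. Controls were at 168, 629.8 and 928 CPM. The 7D groups were at 890.4, 1299, 1320.1, 1546 and 1653 (0 mg/kg), 1308, 1502, 1636 and 1709.7 (2 mg/kg), and 1439.7, 1567 and 1580.4 (6 mg/kg). The 21D groups were at 790.2, 921, 1081, 1348 and 1670.3 (0 mg/kg), 1360.2, 1377, 1577, 1719 and 1750.0 (2 mg/kg), and 1017, 1269, 1308, 1642 and 1742 (6 mg/kg). At both times the 2 and 6 mg/kg tendons lay above the controls, and the 0 mg/kg tendons overlapped the highest control tendon. The rise with 0 mg/kg was 1.22 ± 0.33 (adjusted p = 0.00197) at 7D and 1.01 ± 0.33 (adjusted p = 0.00867) at 21D. In fits of the compared groups alone both calls were lost (adjusted p = 0.0566 and 0.128), and without control replicate 4 the 21D call was lost (adjusted p = 0.0706).

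Col22a1, which encodes a FACIT of tissue junctions such as the myotendinous junction, had the largest fall of any chain at 7D with 0 mg/kg. Control tendons had 152, 292 and 411 CPM. At 7D the levels were 0.905, 1.01, 2.44, 10.4 and 32.3 (0 mg/kg), 53.9, 71.9, 98.6 and 155 (2 mg/kg), and 0.833, 5.86 and 27.4 (6 mg/kg). At 21D they were 7.34, 14.7, 46.5, 65.1 and 65.8 (0 mg/kg), 12.9, 14.5, 21.9, 37.0 and 49.4 (2 mg/kg), and 19.8, 22.7, 23.2, 38.5 and 41.0 (6 mg/kg). The highest 7D 2 mg/kg tendon reached into the control range, and all other repaired tendons were under it. The log2 fold change with 0 mg/kg was -4.92 ± 0.95 (adjusted p = 5.86e-05) at 7D and -2.84 ± 0.88 (adjusted p = 0.00672) at 21D. Skeletal muscle marker genes were also lower than in controls with 0 mg/kg. The summed level of the 25 markers was 239959 to 444221 CPM in controls, 1610.1 to 11903 at 7D and 615 to 77096 at 21D with 0 mg/kg. All 25 markers were called lower at 7D and 19 at 21D, beside 35.6% and 33.7% of all genes. Their part in the Col22a1 result was not tested. In the 7D 2 mg/kg tendons the mean of Col22a1 was 94.9 ± 44.2 CPM (SD), beside 285 ± 129.6 in controls (-1.59 ± 0.93 on the log2 scale, adjusted p = 0.128), and the muscle sum was 82.3 to 100.3 CPM. Col22a1 was called lower there in the fit of the compared groups alone.

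Col9a1, a chain of the cartilage FACIT type IX, had the largest fall at 21D with 0 mg/kg. It was low throughout, with a mean of at most 0.945 CPM in every repaired group. Col9a1 thus passed the filter on expression only through the controls, where it was high, so its fall is not independent of the filter. Controls had 5.72, 8.45 and 8.78 CPM, which came from 70 to 219 counts. The 7D tendons had 0.0993, 0.247, 0.308, 0.377 and 0.685 (0 mg/kg), 0.442, 0.642, 0.729 and 1.97 (2 mg/kg), and 0.187, 0.227 and 0.487 (6 mg/kg). The 21D tendons had 0.157, 0.291, 0.406, 1.23 and 1.25 (0 mg/kg), 0.598, 0.747, 0.823, 0.837 and 1.40 (2 mg/kg), and 0.296, 0.539, 0.736, 0.899 and 1.06 (6 mg/kg). Every repaired tendon was under every control tendon, at 3 to 50 counts each. The log2 fold change was -4.47 ± 0.59 (adjusted p = 3.11e-07) at 7D and -3.54 ± 0.56 (adjusted p = 7.51e-06) at 21D with 0 mg/kg. Among 8 cartilage markers listed, 5 were in the table, and their summed level was 129 to 991 CPM in controls, 23.0 to 123 at 7D and 29.4 to 96.7 at 21D with 0 mg/kg. Of the 4 cartilage markers tested, Chad was lower in both comparisons (-5.74 and -6.03 on the log2 scale), and Acan (1.93 and 1.80) and Matn3 (3.42 and 3.36) were higher. Sox9 was higher at 7D (0.94) and not called at 21D (0.34). Their part in the falls of Col9a1 and Col11a2 was not tested.

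**Figure D4:**
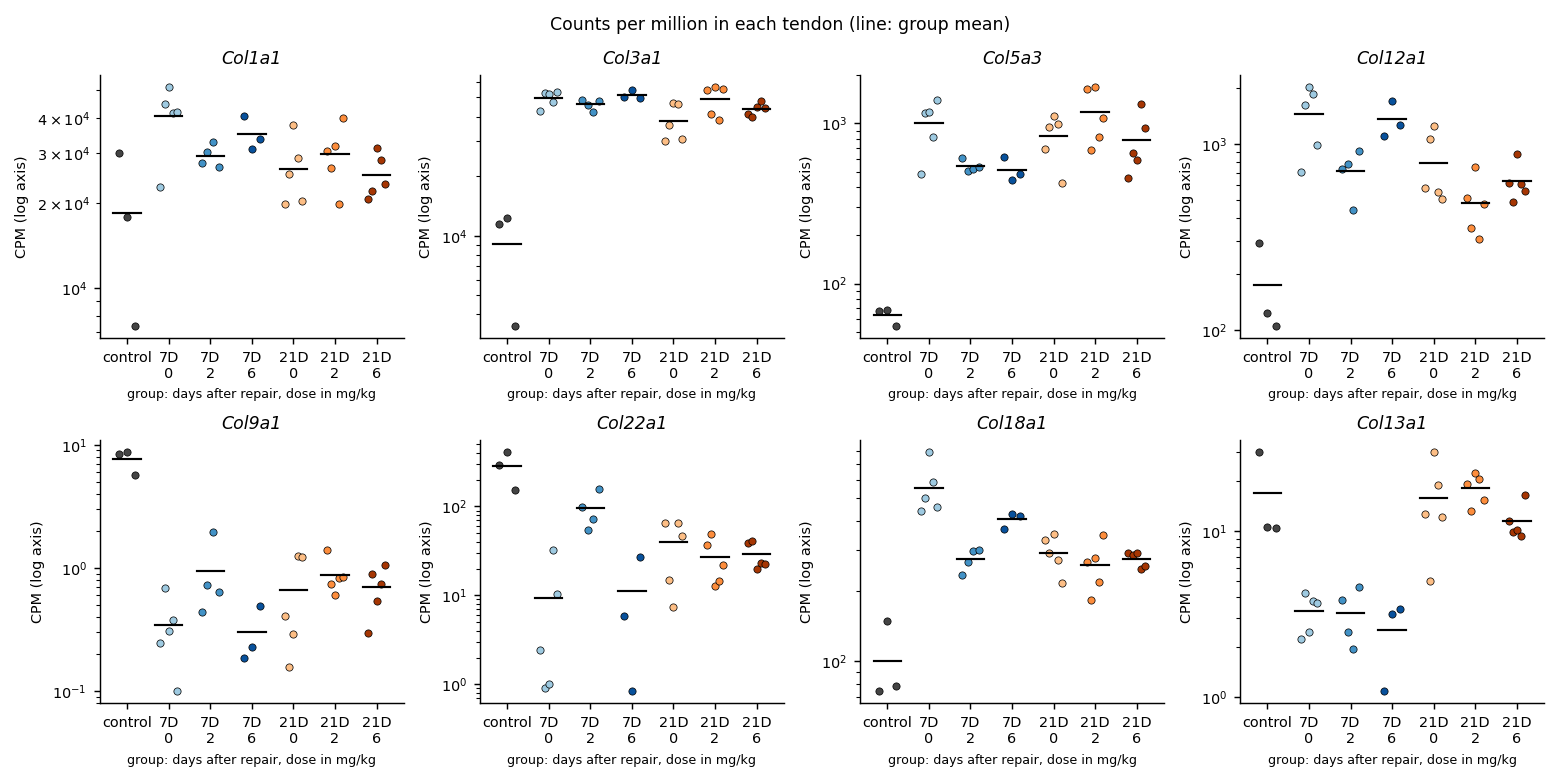
CPM (log axis) of 8 collagen chain genes in each tendon, by group; points are tendons and lines are group means. Col3a1, Col5a3, Col12a1 and Col18a1 lie above the controls in every repaired tendon, Col9a1 lies under them, Col22a1 reaches the control range in 1 of the 7D 2 mg/kg tendons, and Col13a1 is lower at 7D than in every control or 21D tendon.

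The basement membrane group held both higher and lower chains. Of 8 genes, 5 were higher and 2 lower at 7D with 0 mg/kg, beside 35.8% and 35.6% of all genes. At 21D with 0 mg/kg, 5 were higher and 3 lower, beside 32.2% and 33.7% of all genes. The type IV genes lie in head-to-head pairs, each pair read outward from a shared start region, and the pairs went opposite ways. Col4a1 and Col4a2, whose chains form the type IV network of most basement membranes, were higher. Col4a4 and Col4a3, whose chains belong to specialised basement membranes such as those of the kidney, were lower. The start regions of both pairs are shown here because the genes of each pair share one. They are RefSeq windows of 300 bases on the GRCr8 assembly, 5′ to 3′ on each gene's own strand, with capitals for the bases that lie in the windows of both genes of the pair (176 bases for Col4a1 and Col4a2, 88 bases for Col4a4 and Col4a3). The windows are chr16:84885347-84885646 on the + strand for Col4a1, chr16:84885471-84885770 on the − strand for Col4a2, chr9:91323528-91323827 on the − strand for Col4a4 and chr9:91323740-91324039 on the + strand for Col4a3, so the shared bases of a pair read as reverse complements of each other.
Col4a1: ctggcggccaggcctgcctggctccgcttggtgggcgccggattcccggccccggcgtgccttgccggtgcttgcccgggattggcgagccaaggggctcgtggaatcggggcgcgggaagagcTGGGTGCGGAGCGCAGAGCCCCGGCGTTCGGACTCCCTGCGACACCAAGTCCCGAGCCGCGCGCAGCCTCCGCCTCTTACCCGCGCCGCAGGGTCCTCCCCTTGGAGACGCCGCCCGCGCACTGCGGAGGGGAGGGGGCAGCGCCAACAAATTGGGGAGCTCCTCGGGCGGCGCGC
Col4a2: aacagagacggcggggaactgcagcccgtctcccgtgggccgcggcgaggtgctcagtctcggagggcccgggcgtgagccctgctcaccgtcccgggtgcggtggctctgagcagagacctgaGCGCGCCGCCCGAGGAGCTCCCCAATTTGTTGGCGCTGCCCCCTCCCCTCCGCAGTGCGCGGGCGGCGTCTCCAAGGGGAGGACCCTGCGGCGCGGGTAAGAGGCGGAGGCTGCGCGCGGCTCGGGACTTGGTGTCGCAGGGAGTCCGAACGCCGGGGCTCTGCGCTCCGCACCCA
Col4a4: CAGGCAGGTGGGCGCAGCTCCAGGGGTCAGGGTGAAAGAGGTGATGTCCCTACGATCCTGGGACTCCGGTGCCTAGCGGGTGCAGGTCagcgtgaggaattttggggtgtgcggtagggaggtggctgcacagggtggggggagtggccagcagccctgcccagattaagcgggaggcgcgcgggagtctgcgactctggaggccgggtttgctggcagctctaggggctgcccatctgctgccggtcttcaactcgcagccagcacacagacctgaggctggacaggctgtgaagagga
Col4a3: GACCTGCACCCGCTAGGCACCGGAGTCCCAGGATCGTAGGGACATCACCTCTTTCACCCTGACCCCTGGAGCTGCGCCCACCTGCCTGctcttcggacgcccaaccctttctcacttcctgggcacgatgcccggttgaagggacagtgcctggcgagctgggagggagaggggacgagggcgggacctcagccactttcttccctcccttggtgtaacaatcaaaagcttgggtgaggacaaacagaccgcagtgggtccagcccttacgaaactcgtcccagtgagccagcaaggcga

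Windows were found for 27 of the 34 genes. The letters CCAAT, read on either strand, occur in the Col4a1 and Col4a2 windows and in 9 of the 27 in all, beside 37.7% of 27457 genes with a window. GGGCGG, also on either strand, is found for Col4a1, Col4a2 and Col4a3 and in 16 of the 27 (59.3%), beside 34.9% of all genes. TATAAA is in 3 of the 27, Col10a1, Col13a1 and Col17a1, and in 14.3% of all genes. These matches describe the letters only.

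Col4a1 was at 277, 348 and 483 CPM in control tendons. At 7D its levels were 867, 1126, 1191, 1199.6 and 1868 (0 mg/kg), 511, 647, 1010.0 and 1348 (2 mg/kg), and 818, 986 and 1087 (6 mg/kg). At 21D they were 504, 735, 746, 874 and 897 (0 mg/kg), 628, 757, 841, 894 and 905 (2 mg/kg), and 571, 625, 637, 759.6 and 835 (6 mg/kg). All repaired tendons were above all controls. Col4a2 was at 206, 228 and 256 CPM in controls. Its 7D levels were 457, 612, 639, 658 and 1004 (0 mg/kg), 244, 337, 457 and 740.2 (2 mg/kg), and 419.8, 528 and 586 (6 mg/kg). Its 21D levels were 242, 434, 444, 505 and 559 (0 mg/kg), 370.2, 412, 539.9, 559.8 and 574 (2 mg/kg), and 347, 352, 376, 432 and 463 (6 mg/kg). One tendon of the 7D 2 mg/kg group and one of the 21D 0 mg/kg group fell within the control range of Col4a2. With 0 mg/kg, Col4a1 rose by 1.76 ± 0.28 (adjusted p = 5.11e-06) at 7D and 1.02 ± 0.27 (adjusted p = 0.00188) at 21D on the log2 scale. Col4a2 rose by 1.55 ± 0.29 (adjusted p = 4.95e-05) and 0.93 ± 0.29 (adjusted p = 0.00644). Within a tendon the Col4a1 to Col4a2 count ratio stayed between 1.35 and 2.21 over all 30 tendons, while Col4a1 itself spanned 277 to 1868 CPM.

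For the other pair, Col4a4 was at 41.6, 57.7 and 60.1 CPM in controls, at 10.6, 12.2, 12.3, 17.3 and 21.4 at 7D and at 8.21, 15.0, 16.3, 16.4 and 16.6 at 21D with 0 mg/kg. Col4a3 was at 2.29, 6.45 and 9.39 CPM in controls, at 0.603, 0.620, 1.09, 1.23 and 1.30 at 7D and at 0.621, 0.735, 0.853, 1.42 and 1.91 at 21D. Both genes were under the lowest control in all 0 mg/kg tendons. The log2 fold changes were -1.85 ± 0.30 (adjusted p = 8.01e-06) and -1.87 ± 0.30 (adjusted p = 9.76e-06) for Col4a4. They were -2.64 ± 0.54 (adjusted p = 0.000106) and -2.46 ± 0.53 (adjusted p = 0.000294) for Col4a3. In the 7D 2 mg/kg tendons Col4a4 was at 16.2, 21.2, 37.1 and 47.5 CPM (-0.81 ± 0.32, adjusted p = 0.0291 against control) and Col4a3 was at 2.02, 2.17, 3.82 and 4.24 CPM (-0.998 ± 0.56, adjusted p = 0.113), and both overlapped the controls. The Col4a4 call was lost with library size scaling, in the fit of the compared groups alone, and without control replicate 2 or 3 or 7D 2 mg/kg replicate 2 or 3. Col4a5, on the X chromosome and a partner of the Col4a3 and Col4a4 chains, was lower at 21D with 0 mg/kg (-0.999 ± 0.24, adjusted p = 0.000735) and had a log2 difference of -0.52 ± 0.24 (adjusted p = 0.0516) at 7D. Scaling by library size alone ended its 21D call, and DESeq2, RLE, the replicate block and several fits without 1 tendon called it lower at 7D.

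**Figure D5:**
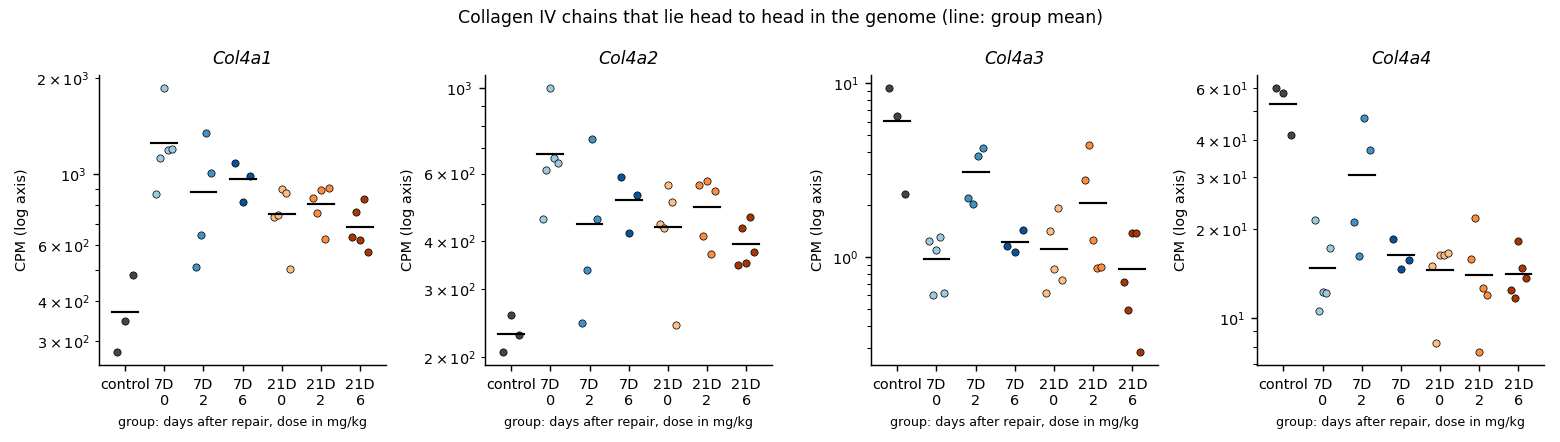
CPM (log axis) of the head-to-head gene pairs Col4a1 and Col4a2 (the 2 panels on the left) and Col4a3 and Col4a4 (the 2 panels on the right) in each tendon, by group; points are tendons and lines are group means. The left pair is higher after repair and the right pair lower, with the 7D 2 mg/kg tendons nearest to the controls in the right pair.

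The basement membrane zone chains were higher with 0 mg/kg at both times. Col18a1 encodes a proteoglycan core protein whose end fragment is endostatin. It was at 74.3, 78.3 and 148 CPM in control tendons. At 7D it was at 441, 459.8, 499, 587 and 792 (0 mg/kg), 234, 268, 297 and 302 (2 mg/kg), and 368, 422 and 428 (6 mg/kg). At 21D it was at 216, 271, 293, 332 and 351 (0 mg/kg), 183, 218, 268, 278 and 348 (2 mg/kg), and 249, 257, 285, 291 and 292 (6 mg/kg). Every repaired tendon was above every control, and the 3 doses at 7D did not overlap each other. Col18a1 rose by 2.47 ± 0.24 (adjusted p = 3.57e-09) at 7D and 1.54 ± 0.23 (adjusted p = 3.06e-06) at 21D with 0 mg/kg. Col15a1, its relative, rose by 1.48 ± 0.33 (adjusted p = 0.000309) and 1.03 ± 0.32 (adjusted p = 0.00739), and the low-level Col7a1, the anchoring fibril chain, by 1.88 ± 0.61 (adjusted p = 0.00770) and 1.39 ± 0.59 (adjusted p = 0.0430). Both Col7a1 calls were lost without control replicate 2, and its 21D call also without control replicate 3 or 21D 0 mg/kg replicate 1 or 2 and with the replicate block. The 21D call of Col15a1 was lost without control replicate 4 and in the fit of the compared groups alone. Endothelial markers, 7 in the table of 8 listed, summed to 195 to 730.4 CPM in controls, 555 to 817 at 7D and 388 to 776 at 21D with 0 mg/kg. Of these 7, Tek and Tie1 were higher at 7D with 0 mg/kg, where 35.8% of all genes were higher. None of the 7 was called at 21D with 0 mg/kg. Their part in the basement membrane results was not tested.

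Type VI chains form the beaded filaments. Where 35.8% (7D) and 32.2% (21D) of all genes were higher, the 4 genes tested were higher in both 0 mg/kg comparisons. Col6a5, among them, passed the filter on expression only through the 7D 0 mg/kg group, where it was highest, so its 7D rise is not independent of the filter. Col6a1 was at 245, 454 and 787 CPM in control tendons. The 7D tendons were at 1091, 1869, 1924, 2178 and 2225 (0 mg/kg), 1120.3, 1196, 1260.4 and 1266 (2 mg/kg), and 1298, 1689.8 and 1761 (6 mg/kg). The 21D tendons were at 1011, 1362, 1869, 1869 and 2255 (0 mg/kg), 1803, 1907, 2116, 2331 and 3091 (2 mg/kg), and 1258, 1514, 1661, 1948 and 2034 (6 mg/kg). No repaired tendon overlapped the controls, and at 2 mg/kg the 21D tendons were all above the 7D tendons. The neighbouring gene Col6a2 was at 381, 634 and 912 CPM in controls. At 7D it was at 1337, 2177, 2181, 2612 and 2718 (0 mg/kg), 1591, 1599, 1771 and 1886 (2 mg/kg), and 1844, 2003 and 2036 (6 mg/kg). At 21D it was at 1330.3, 1668, 2121, 2473 and 2913 (0 mg/kg), 2129, 2316, 2642, 2874 and 3310.4 (2 mg/kg), and 1538, 1981, 2039, 2516 and 2577 (6 mg/kg). The same held for Col6a2, although it was not called between the times at that dose. Col6a1 rose by 1.91 ± 0.31 (adjusted p = 6.19e-06) and 1.76 ± 0.31 (adjusted p = 2.33e-05) at 7D and 21D with 0 mg/kg, and Col6a2 by 1.78 ± 0.27 (adjusted p = 3.15e-06) and 1.71 ± 0.27 (adjusted p = 7.57e-06). The alternative α chains Col6a5 and Col6a6 lie beside Col6a4 in the genome. Col6a6 went from 17.6 ± 10.4 CPM to 55.7 ± 18.1 and 74.5 ± 23.4, log2 fold changes of 1.65 ± 0.41 (adjusted p = 0.00101) and 2.07 ± 0.42 (adjusted p = 0.000156). Col6a5 was near the detection floor in controls, at 0 to 11 counts, and its log2 fold changes of 3.35 ± 0.99 (adjusted p = 0.00413) and 2.43 ± 0.97 (adjusted p = 0.0304) carry large errors. Without 7D 0 mg/kg replicate 3, Col6a5 was under the filter and was not tested. Its 21D call was lost without control replicate 2 or 3 or 21D 0 mg/kg replicate 2. In the 21D fit of the compared groups alone Col6a5 was again under the filter and was not tested. Col6a4 had 0.411 ± 0.370 CPM in controls and 1.90 ± 0.313 at 7D with 0 mg/kg, under the filter. With no filter its log2 fold change was 2.34 ± 0.51 (adjusted p = 0.000259) at 7D and 1.56 ± 0.51 (adjusted p = 0.00937) at 21D.

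Col8a1 and Col8a2 encode the short chains of type VIII collagen, which forms open networks in vessel walls and the cornea. The control tendons had 9.80, 23.0 and 24.4 CPM of Col8a1. The 7D tendons had 82.4, 90.9, 106, 115 and 138 (0 mg/kg), 73.6, 88.5, 89.2 and 109 (2 mg/kg), and 101, 112 and 176 (6 mg/kg). The 21D tendons had 93.1, 97.6, 139.6, 166 and 281 (0 mg/kg), 103, 106, 156, 164 and 233 (2 mg/kg), and 91.1, 96.5, 148, 154 and 169 (6 mg/kg). All repaired tendons were above the controls. Col8a1 rose by 2.48 ± 0.37 (adjusted p = 2.42e-06) at 7D and 3.02 ± 0.38 (adjusted p = 3.81e-07) at 21D with 0 mg/kg. The control tendons had 28.3, 32.4 and 91.1 CPM of Col8a2. The 7D tendons had 37.1, 52.0, 52.8, 67.9 and 86.7 (0 mg/kg), 42.6, 43.7, 46.9 and 51.7 (2 mg/kg), and 48.8, 59.4 and 83.0 (6 mg/kg). The 21D tendons had 49.0, 55.9, 67.0, 72.4 and 137 (0 mg/kg), 51.4, 63.4, 63.7, 79.2 and 90.4 (2 mg/kg), and 52.1, 56.9, 70.2, 76.9 and 132 (6 mg/kg). Every repaired group overlapped the controls for Col8a2. Its log2 differences of 0.23 ± 0.36 (adjusted p = 0.586) and 0.59 ± 0.37 (adjusted p = 0.157) did not pass the test. Without control replicate 2 they were 0.90 (adjusted p = 0.0370) and 1.27 (adjusted p = 0.00591), both then calls. Col10a1, the chain of hypertrophic cartilage, was under the filter, with 0 to 11 counts in the 7D tendons and 0 to 215 in the 21D tendons. With no filter the log2 difference between 21D and 7D was 4.31 ± 1.10 (adjusted p = 0.0257) at 0 mg/kg and 3.31 ± 1.41 (adjusted p = 0.121) at 2 mg/kg, of which the second did not pass. At 6 mg/kg it was called higher at 21D (adjusted p = 0.0245), but the 7D tendons had 0, 0 and 2 counts, so no fold is given. The 21D tendons with 6 mg/kg had 0 to 135 counts.

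The transmembrane chains differed from each other. Col17a1, a protein of epithelial anchoring complexes, was at 4.41, 17.2 and 23.3 CPM in controls. The 7D levels were 19.4, 25.4, 25.4, 31.2 and 35.0 (0 mg/kg), 32.6, 34.7, 35.1 and 37.0 (2 mg/kg), and 17.5, 19.5 and 26.7 (6 mg/kg). The 21D levels were 26.4, 26.9, 28.1, 29.8 and 34.7 (0 mg/kg), 31.0, 34.3, 48.0, 49.97 and 52.7 (2 mg/kg), and 17.7, 33.5, 33.7, 37.6 and 37.6 (6 mg/kg). The 7D 2 mg/kg tendons and the 21D 0 and 2 mg/kg tendons were wholly above the controls. Col17a1 rose by 0.85 ± 0.32 (adjusted p = 0.0189) at 7D and 0.95 ± 0.32 (adjusted p = 0.0110) at 21D with 0 mg/kg. Without control replicate 4, the lowest control, neither call held (adjusted p = 0.192 and 0.103), nor in fits of the compared groups alone (adjusted p = 0.130 and 0.0933).

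Col13a1, a membrane collagen known from the neuromuscular junction, fell at 7D and did not pass the test at 21D with 0 mg/kg. Control tendons had 10.5, 10.6 and 29.9 CPM. At 7D the levels were 2.25, 2.46, 3.67, 3.80 and 4.25 (0 mg/kg), 1.97, 2.47, 3.87 and 4.63 (2 mg/kg), and 1.09, 3.18 and 3.38 (6 mg/kg). At 21D they were 5.004, 12.1, 12.7, 19.0 and 29.9 (0 mg/kg), 13.2, 15.3, 19.1, 20.4 and 22.2 (2 mg/kg), and 9.32, 9.86, 10.1, 11.6 and 16.5 (6 mg/kg). At each dose all 7D tendons were under all control tendons and under all 21D tendons. With 0 mg/kg the log2 fold change against control was -2.37 ± 0.42 (adjusted p = 2.43e-05) at 7D and -0.11 ± 0.42 (adjusted p = 0.829) at 21D. Col28a1, a collagen of peripheral nerve, had 2.45, 4.29 and 4.90 CPM in controls. The 7D levels were 1.74, 1.88, 1.99, 4.99 and 5.51 (0 mg/kg), 1.74, 1.80, 2.58 and 3.01 (2 mg/kg), and 1.68, 1.74 and 4.35 (6 mg/kg). The 21D levels were 1.23, 1.32, 1.44, 1.996 and 3.58 (0 mg/kg), 0.546, 0.709, 1.21, 1.73 and 2.09 (2 mg/kg), and 1.03, 1.29, 1.45, 1.99 and 3.17 (6 mg/kg). Its log2 difference was -0.26 ± 0.49 (adjusted p = 0.639) at 7D and -1.01 ± 0.48 (adjusted p = 0.0695) at 21D with 0 mg/kg, which became a call without control replicate 2 (adjusted p = 0.0356) or 21D 0 mg/kg replicate 1 (adjusted p = 0.0178) and with the replicate block (-1.26, adjusted p = 0.0311). It was called lower at 21D with 2 mg/kg (-1.63 ± 0.49, adjusted p = 0.00473), where the tendons lay under the controls, and with 6 mg/kg (-1.12 ± 0.49, adjusted p = 0.0461), where they overlapped. Col28a1 passed the filter, which reads CPM before TMM scaling, only through the 7D 0 mg/kg group. In the fits of the compared groups alone Col28a1 was under the filter, so neither call could be tested there. The 6 mg/kg call was lost with library size scaling, with no filter, without control replicate 3 or 4, and without 21D 6 mg/kg replicate 2, 3, 4 or 5. The 4 Schwann cell markers in the table, of 5 listed, summed to 25.7 to 33.0 CPM in controls and 21.6 to 64.7 CPM at 21D with 2 mg/kg, and none of the 4 was called there. Their part in the Col28a1 result was not tested.

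Time after repair was the next comparison, as 21D against 7D at each dose. At 0 mg/kg, 1 chain was higher and 1 lower at 21D, where 2.88% and 2.47% of all genes were called. Col13a1 was higher (2.26 ± 0.39, adjusted p = 0.00203) and Col18a1 lower (-0.93 ± 0.19, adjusted p = 0.00722), both with no overlap between the 5 tendons of each time. At 2 mg/kg, 6 chains were higher and 2 lower (7.09% and 5.98% of all genes). The higher chains were Col13a1 (2.49 ± 0.43), Col6a6 (1.58 ± 0.37), Col24a1 (1.39 ± 0.41), Col5a3 (1.13 ± 0.33), Col6a1 (0.89 ± 0.27) and Col5a2 (0.82 ± 0.27), with no overlap between the times. These chains were picked by the test on the same tendons, so the lack of overlap is no separate support. Overlap was not counted over all genes. Col4a4 (-1.12 ± 0.29) and Col4a5 (-0.80 ± 0.22) were lower, with overlap. These 2 mg/kg counts depend on single tendons. Leaving out 1 tendon at a time gave 2 to 6 higher and 0 to 2 lower chains, with only Col13a1 and Col6a6 called higher in every such fit. At 6 mg/kg, 1 chain was higher, Col13a1 (2.20 ± 0.48, adjusted p = 0.00376), and 1 lower, Col12a1 (-1.10 ± 0.37, adjusted p = 0.0487), beside 8.54% and 4.55% of all genes. Under scaling by library size alone the share of all called genes that were higher at 21D went from 53.9% to 42.7% at 0 mg/kg and from 65.2% to 50.9% at 6 mg/kg. The Col12a1 call at 6 mg/kg was lost without any 1 of the 7D tendons and without any 1 of 4 of the 21D tendons, all but 21D 6 mg/kg replicate 3. Skeletal muscle genes also differed between the times, with 2 of 25 called higher at 21D with 0 mg/kg and all 25 with 2 and with 6 mg/kg. Their part in these results was not tested.

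The last question was whether the HPGDS inhibitor changed the collagen chains. At 7D, 2 of the 32 chains were called across the 3 doses by the F-test, Col18a1 (adjusted p = 0.0141) and Col22a1 (adjusted p = 0.0389), where 2.05% of all genes were called. The 7D values of Col18a1 given above fell in the order 0, 6 and 2 mg/kg. Against 0 mg/kg, the log2 fold change of Col18a1 was -1.01 ± 0.20 at 2 mg/kg and -0.45 ± 0.22 at 6 mg/kg. Without 7D 2 mg/kg replicate 2 the call was lost (adjusted p = 0.0640). Col22a1 was higher with 2 mg/kg than with 0 mg/kg, by 3.33 ± 0.87, with no overlap, and differed by 0.30 ± 0.90 at 6 mg/kg. Its call across doses held without 7D 0 mg/kg replicate 4, 7D 2 mg/kg replicate 3 or 7D 6 mg/kg replicate 5, and was lost without any 1 of the other 7D tendons and in the fit of the 7D groups alone (adjusted p = 0.161). The 3 tendons of the 6 mg/kg group and those of the 0 mg/kg group overlapped for Col22a1. Next in order of p were Col4a4 (adjusted p = 0.0858, log2 1.04 ± 0.29 at 2 mg/kg) and Col24a1 (adjusted p = 0.143, log2 -1.47 ± 0.41), neither of which was called. Col24a1 was called with the replicate block and with DESeq2, Col4a4 with DESeq2 and without 7D 0 mg/kg replicate 1 or 7D 2 mg/kg replicate 3, and Col4a3 in the fit of the 7D groups alone. Of the 32 chains 11 had an unadjusted p under 0.05, as had 1576 of 12558 genes. The muscle markers were also called across doses at 7D, 19 of 25, and their summed level was 1610.1 to 11903 CPM with 0 mg/kg, 82.3 to 100.3 with 2 mg/kg and 85.7 to 107 with 6 mg/kg, with no overlap between 0 mg/kg and either dose. Between 0 mg/kg and either dose at 7D, the level of muscle genes and the dose cannot be told apart. The 2 and 6 mg/kg tendons overlapped in their muscle sums and did not overlap for Col18a1 or Col22a1. The part of muscle genes in these dose results was not tested.

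At 21D no chain was called across doses, and 0% of all genes were called by edgeR. The smallest adjusted p among the chains was 0.366, and 2 of the 32 chains and 1366 of 12558 genes had an unadjusted p under 0.05. DESeq2 called 138 genes across doses at 21D and none of the chains. The log2 fold changes of the 32 chains against 0 mg/kg at 21D ran from -0.84 to 0.88 at 2 mg/kg and from -1.40 to 0.50 at 6 mg/kg, with standard errors of 0.19 to 0.80 and 0.19 to 0.80. For Col1a1 the dose differences were 0.17 ± 0.28 and -0.07 ± 0.28, and for Col3a1 0.37 ± 0.23 and 0.20 ± 0.23. Whether the dose effect differed between 7D and 21D was tested as an interaction. No chain was called, where 0.39% of all genes were, the smallest adjusted p was 0.338 (Col22a1), and 6 of the 32 chains and 985 of 12558 genes had an unadjusted p under 0.05. DESeq2 also called no chain in the interaction, where it called 181 genes.

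Genes that fold, modify, cleave and crosslink collagen were counted beside the chains, from a list of 34 of which 31 were in the table. Of these, 22 were higher and 2 lower at 7D with 0 mg/kg, beside 35.8% and 35.6% of all genes. At 21D with 0 mg/kg, 22 were higher and 3 lower, beside 32.2% and 33.7% of all genes. P4ha3, of the prolyl 4-hydroxylases that stabilise the triple helix, rose by 3.74 and 3.39 on the log2 scale. P3h2, a prolyl 3-hydroxylase, fell, with log2 fold changes of -2.94 and -3.22. Serpinh1, the collagen chaperone of the endoplasmic reticulum, rose by 1.63 and 1.13. The crosslinking enzymes Lox (2.50 and 2.003) and Loxl1 (2.61 and 2.55) were also higher. Tmem38b, an ion channel of the endoplasmic reticulum needed for collagen processing, was lower (-2.78 and -2.08), and Loxl4 was lower at 21D (-0.88). None of the 31 was called across doses at either time. All 9 tendon fibroblast markers listed were in the table and summed to 3953 to 13118 CPM in controls and 9743 to 11176 CPM at 7D with 0 mg/kg, where Lum was higher and Fmod, Kera, Mkx and Tnmd were lower. The 6 macrophage markers summed to 201 to 823 CPM in controls and 831 to 2161 CPM at 7D with 0 mg/kg, with 5 of 6 higher. The part of both lists in the collagen results was not tested.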

How the data were processed

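RNA sequencing counts of 30 rat tendons were used, grouped by the time and dose in the sample labels. Reads were trimmed (fastp), aligned to RN6 (STAR) and counted over Ensembl exons by the authors, who left out samples on quality and deposited raw counts per gene. Tool versions are not given in the sources used here. By these removals the 7D 6 mg/kg group would hold 4 tendons, but 3 are labelled so, and 3 were used. A second deposited table holds the authors' own comparisons (log2 fold changes, average log2 CPM, p-values and FDR), none of which was used. Gene names and chromosomes were taken from it, with one column of other values, gene width in bases. It gives no exon lengths, so levels were not compared between genes.

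The members and lists were chosen with earlier results of these data known. The analysis used edgeR 4.0.16 (R 4.3.3) and the 12558 of 13124 genes that averaged 3 CPM or more in any of the 7 groups. TMM factors were 0.599 to 0.788 in controls and 0.950 to 1.095 in repaired tendons. One quasi-likelihood fit over all tendons estimated a mean for each group, without covariates, with Benjamini-Hochberg adjustment over all genes kept, and a call is an adjusted p under 0.05. The standard error is the log2 fold change divided by the root of F. Ratios were tested by exact permutation with scipy 1.17.1. No pair of tendons of a group agreed within sampling noise (lowest chi-square 29.6 per gene). Reads carry no molecular identifiers, so PCR copies are not separate molecules.

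Every chain is named. Values for each tendon are given for the 2 chains of highest mean CPM per class, the largest rise and fall in each 0 mg/kg comparison and chains called across doses. The single values of Col11a2, Col4a3 and Col4a4 were added after their values were seen. The alternatives were RLE, library size only, scaling without muscle and collagen genes, no filter, a mean of 10 CPM, limma-trend (limma 3.58.1), DESeq2 1.42.0, a replicate block, only the groups compared, a 1.5-fold threshold, medians for ratios, and leaving out each tendon. Promoter windows and gene neighbours come from RefSeq on GRCr8, a different assembly from the RN6 of the counts, matched by symbol.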

Additional observations from a re-analysis of the deposited data

Results flagged for a closer look

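The 34 chains, both ratios and the collagen share were checked in each group of 4 or 5 tendons for a single value far from the others, and 13 of 185 sets of values held one, where chance flags about 1 in 20. In 7D 0 mg/kg replicate 1, Col5a1 was at 949 CPM, under the 2303 to 2715 CPM of the other tendons of its group, and Col5a2 at 1174 CPM, under 2145 to 2228 CPM. Col6a5 was at 8.81 CPM in 7D 0 mg/kg replicate 3, above 1.37 to 3.35 CPM, and at 4.69 CPM in 21D 0 mg/kg replicate 2, above 0.764 to 1.58 CPM. In 21D 0 mg/kg replicate 3, 3 chains were high, with Col8a2 at 137 CPM (others 48.97 to 72.4), Col11a2 at 30.6 CPM (others 6.37 to 10.2) and Col2a1 at 7.13 CPM (others 1.58 to 3.01). Col4a4 was at 8.21 CPM in 21D 0 mg/kg replicate 2, under 14.98 to 16.6 CPM. Col11a1 was at 116 CPM in 7D 2 mg/kg replicate 4, under 180.3 to 192 CPM, and at 490.2 CPM in 21D 6 mg/kg replicate 3, above 166 to 232 CPM. Col10a1, with few counts, was at 0.321 CPM in 7D 2 mg/kg replicate 5, where the others had at most 0.0280 CPM, and at 1.99 CPM in 21D 2 mg/kg replicate 1, above 0.0862 to 0.549 CPM. Col17a1 was at 17.7 CPM in 21D 6 mg/kg replicate 2, under 33.5 to 37.6 CPM. Groups of 3 tendons were not checked. No chain had dose differences that pointed in opposite, non-overlapping directions at 7D and 21D.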

How the results depend on the processing

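Of 207 recounts under other settings, 191 stayed within 1.5 times the value reported, and no named log2 fold change reversed as a call. The chains higher at 21D than 7D at 0 mg/kg became 2 with no filter and with limma-trend, and at 6 mg/kg 2 with no filter. Those lower at 0 mg/kg became 2 with library size only and 3 with DESeq2. Those lower at 6 mg/kg became 2 with library size only and with DESeq2, 0 with scaling without muscle and collagen genes, no filter and limma-trend, and 3 with only the groups compared. With a mean of 10 CPM, 5 chains were lower than control at 21D with 2 and with 6 mg/kg, since fewer chains were tested. DESeq2 called 4 chains across doses at 7D, where it called 572 genes in all and edgeR 258. For 21D against 7D it also called more genes than edgeR, 1496 beside 672 (0 mg/kg) and 2221 beside 1643 (6 mg/kg). For the other changes the cause was not tested. The replicate block gave 2 lower chains at 0 mg/kg and 3 at 6 mg/kg for 21D against 7D. The numbers share no stated origin, and deviations of same-numbered tendons had a median correlation of 0.00685 over 76 pairs and those of other pairs 0.00878 over 307, so they were not taken to pair the tendons. Leaving out each tendon gave 0 to 3 chains across doses at 7D. For 21D against 7D it gave 1 to 2 higher and 1 to 3 lower at 0 mg/kg, 2 to 6 higher and 0 to 2 lower at 2 mg/kg, and 0 to 2 lower at 6 mg/kg. With medians, the log2 Col3a1 to Col1a1 differences against control were 1.31 at 7D and 1.67 at 21D and those of Col5a1 to Col1a1 1.40 and 1.66, all with an adjusted exact permutation p of 0.0804. Leaving out each tendon, they ran from 1.14 to 1.57, 1.34 to 1.78, 1.14 to 1.59 and 1.34 to 1.79, and without any 1 control the design cannot pass after adjustment (0.0714). The 21D against 7D differences ran from 0.12 to 0.34 for Col3a1 to Col1a1 and 0.12 to 0.28 for Col5a1 to Col1a1, each past the threshold in 1 fit, without 7D 0 mg/kg replicate 1 (adjusted exact p = 0.0286) and without 21D 0 mg/kg replicate 5 (0.0286). Ratios were not run with the block, since the shared numbers are too few for an exact paired test to pass. Depth limits Col9a1, Col6a5, Col6a4 and Col10a1, which had few counts.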
